A study of Mus musculus with 275 samples.

Results

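The 9 genes described here carry lipids through the brain, and were taken by name: Lpl, Apoe, Apod, Clu, Abca1, Lrp1, Fabp3, Fabp5 and Fabp7. They were read by 10 of the 25697 probes in the table, 1 probe each except for Fabp5, which had 2, and the table held 16593 gene symbols in all. The arrays read striatal RNA of mice bred for a strong cataleptic response to the antipsychotic haloperidol (High lines) or a weak one (Low lines), with 1 Illumina bead array per animal and 275 arrays in all. The F2 selection started from an intercross of the inbred strains C57BL/6J and DBA/2J and gave 41 High and 42 Low animals. HS4 started from a heterogeneous stock of 4 strains (C57BL/6J, DBA/2J, BALB/cJ and LP/J). HS-CC started from a heterogeneous stock that joined all 8 founder strains of the Collaborative Cross. HS4 and HS-CC each gave 48 High and 48 Low animals. All animals were progeny of generation 3 of selection, 1 High and 1 Low line stood for each selection, and ages were not given in the sources used here. Differences between the lines of 1 selection can therefore come from the trait selected or from alleles fixed by chance, and these cannot be told apart.

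Neurons depend on glia for much of their lipid. Astrocytes secrete particles built on apolipoprotein E, the exporter ABCA1 loads them with cholesterol and phospholipid, and cells take them up through receptors such as LRP1. Clusterin (apolipoprotein J, encoded by Clu) and apolipoprotein D are carried on such particles or bind small hydrophobic ligands, and lipoprotein lipase releases fatty acids from triglyceride in them. Inside the cell, fatty acid binding proteins shuttle fatty acids: FABP3 is the form of mature neurons, FABP7 that of astrocytes and radial glia, and FABP5 is made by several brain cell types.

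The tissue carried the label striatum, and all 6 measured of the 9 listed markers of striatal spiny neurons were expressed in each selection, with signals between the percentiles 83.2 and 99.8 of all probes. A few arrays stood apart from the rest of their selection in their mean correlation with the other arrays (3 of F2, 4 of HS4 and 1 of HS-CC). A larger number were dim, with under 50% of all probes above background: 15 of F2, 11 of HS-CC and 14 of HS4 (6 labelled High and 8 Low). Leaving the dim arrays out was a choice made after the data had been seen, and many results are given with and without them. In HS4 the sex given in the labels matched the split of the arrays by Y-linked signal on 41 of 96 arrays only, so the HS4 lines are named as labelled and every direction in HS4 rests on labels in doubt. No 2 arrays were near duplicates, since the highest correlation of a pair was 0.997.

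Promoters of 6 of the 9 genes could be read from the RefSeq table of mouse build GRCm38.p6. Those of 2 genes are shown, Lrp1, which was lower in High animals of HS-CC, and Fabp7, which followed Fabp5 and Apoe there. Each is the 250 bases before the start site, 5′ to 3′ on the strand of the gene. Capitals mark 4 motifs searched for on both strands. The first, known as the GC box, was taken as the letters GGGCGG. The CCAAT box was searched for by the letters of its name. The TATA box was taken as TATAAA and is found in neither window. The half-site of nuclear receptors was taken as AGGTCA, and no motif overlapped another in these windows.
Lrp1, chr10:127621149-127621398, minus strand: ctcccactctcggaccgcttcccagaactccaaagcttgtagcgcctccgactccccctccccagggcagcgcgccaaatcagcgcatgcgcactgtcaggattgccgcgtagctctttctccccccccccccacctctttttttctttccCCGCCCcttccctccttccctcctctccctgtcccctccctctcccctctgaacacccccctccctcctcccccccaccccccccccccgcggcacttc
Fabp7, chr10:57784673-57784922, plus strand: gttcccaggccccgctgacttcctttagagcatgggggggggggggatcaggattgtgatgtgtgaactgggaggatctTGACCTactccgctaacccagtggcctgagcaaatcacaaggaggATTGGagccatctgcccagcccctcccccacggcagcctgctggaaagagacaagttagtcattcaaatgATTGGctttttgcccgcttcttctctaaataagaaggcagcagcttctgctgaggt
The Lrp1 window held 1 GC box, read on the opposite strand at bases 152 to 157, and it was rich in GC (67.2%). Fabp7 held 2 CCAAT boxes on the opposite strand, at bases 125 to 129 and 195 to 199, and 1 half-site at bases 80 to 85. Such letters are common: among 32851 promoter windows of the same length a GC box was found in 32.7%, a CCAAT box in 33.8%, a TATA box in 12.4% and a half-site in 14%.

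Most of the genes gave bright signals. On the log2 scale the Clu probe lay at the percentile 98.8 of all probes in F2 and in HS-CC and 99.3 in HS4. Apoe lay between the percentiles 96.9 and 97.4 and Lpl in the same range, and Fabp3 (92.5 to 94.5) and Apod (91.0 to 95.3) followed. Lrp1 (72.4 to 76.8), Fabp5 (66.3 to 75.3) and Fabp7 (62.5 to 70.6) gave middling signals. A probe's brightness depends on its sequence as well as on its transcript, so this order is one of signals, and levels are not set against each other between selections, which the authors normalized separately.

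Abca1 was near background. Its probe passed the 95th percentile of receptor probes that served as background on 38 of 83 F2 arrays, 39 of 96 HS-CC arrays and 9 of 96 HS4 arrays, so it was tested in F2 and HS-CC but not in HS4, where the rule of 25% of arrays was not met. The second Fabp5 probe passed that level on 0 arrays of any selection, and everything said of Fabp5 rests on the other probe. Whether the lines differ in sequence under the probes was not examined, so a difference in signal need not be one in transcript.

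**Figure D1:**
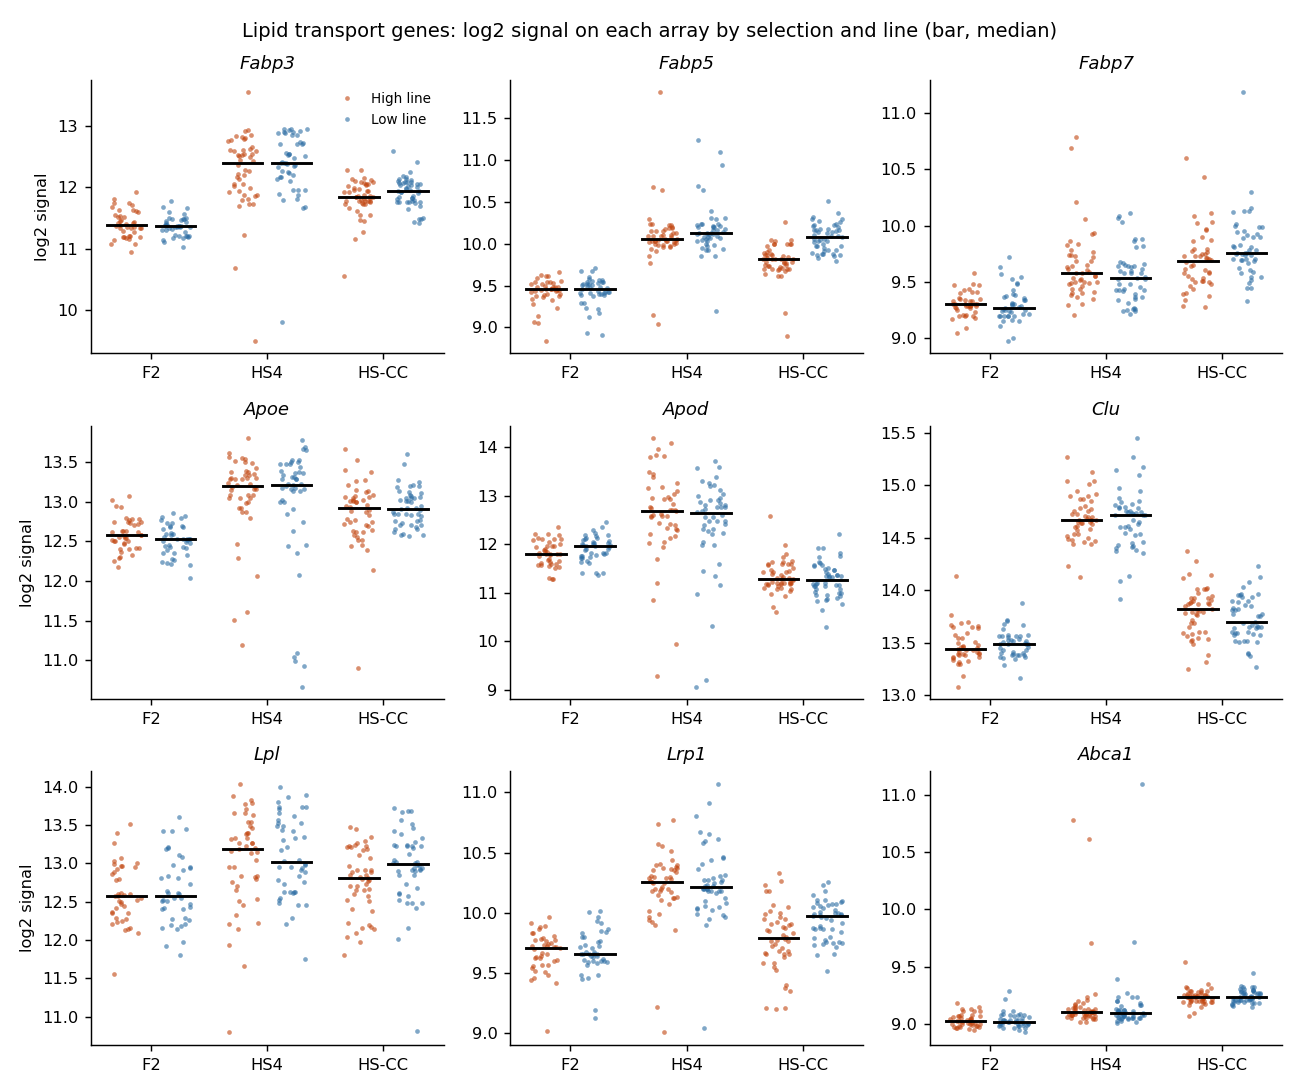
Log2 signal (y axis) of the expressed or lead probe of each gene on each array, by selection (x axis) and line, with a bar at the median. The Fabp5 points of the HS-CC High line lie mostly under those of the Low line, whereas the lines overlap for the other genes.

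The spread among animals differed from gene to gene. In F2 the values of Clu ran from 13.08 through a median of 13.46 to 14.13, and those of Lpl from 11.55 through 12.57 to 13.61. Lpl thus varied more (SD 0.42 against 0.15 for Clu, n = 83). Over the arrays labelled HS4, Apod had the widest range, from 9.07 through 12.68 to 14.19 (SD 0.96, n = 96), against 10.30, 11.28 and 12.58 in HS-CC (SD 0.34, n = 96). Apoe in HS4 ran from 10.67 through 13.21 to 13.80, with a tail of low arrays in both lines. The tails were made of dim arrays: these were 9 of the 10 lowest arrays for Apoe and 10 of the 10 lowest for Apod. The median of Apoe was 11.56 over the 14 dim HS4 arrays and 13.29 over the other 82, and that of Apod was 11.07 against 12.71. Fabp5 went the other way, with a median of 10.64 on the dim arrays and 10.09 on the others.

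The first question was whether the lines differed. In HS-CC, 2 of the 9 gene probes tested passed the threshold (limma with Benjamini-Hochberg adjustment over all expressed probes, adjusted p under 0.1), both lower in High, beside 3.41% of all 15119 probes tested and 2.22% called lower. These were Fabp5 and Lrp1. In F2, 0 of 9 passed by limma, beside 0.922% of 15300 probes, and 0 of the 9 had an unadjusted p under 0.05. In HS4 as labelled, 0 of 8 passed, beside 0.046% of 15219 probes, again with 0 under 0.05 before adjustment.

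Fabp5, the binding protein shared by several brain cell types, gave the clearest difference. In HS-CC its High values had a lowest of 8.90, a median of 9.81 and a highest of 10.26, and its Low values 9.79, 10.09 and 10.51. The lines overlapped only in part: 47 of 48 High animals lay below the Low median, 23 lay below the lowest Low animal, and 6 Low animals lay above the highest High animal. The mean was 9.79 ± 0.21 (SD, n = 48) in High and 10.08 ± 0.16 (SD, n = 48) in Low, a difference of −0.28 on the log2 scale (SE 0.038, 95% interval −0.36 to −0.21, limma adjusted p = 5.75e-08), or 0.822 times the Low level. It ranked 11 of 15119 probes by p. Without the 1 HS-CC array that stood apart, a High array, the difference was −0.26 (SE 0.033, limma adjusted p = 8.50e-09), and without the 11 dim arrays it was −0.24 (adjusted p = 3.99e-08).

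Neither F2 nor HS4 as labelled showed a difference that passed. In F2 the High values of Fabp5 were 8.84, 9.46 and 9.66 (lowest, median and highest) and the Low values 8.90, 9.46 and 9.71, with 23 of 41 High animals below the Low median. The lines lay over each other, with a difference of −0.01 (95% interval −0.08 to 0.06). In HS4 as labelled, High had 9.04, 10.05 and 11.81 and Low 9.20, 10.12 and 11.24, with 31 of 48 High arrays below the Low median and a difference of −0.09 (95% interval −0.22 to 0.05). Without the dim arrays the HS4 difference was −0.03 (95% interval −0.08 to 0.02).

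The difference between selections was tested directly. With all arrays normalized together, the High minus Low difference of Fabp5 was 0.30 higher in F2 than in HS-CC (SE 0.071, limma adjusted p = 0.00911). It was 0.23 higher in HS4 as labelled than in HS-CC (SE 0.068, limma adjusted p = 0.0880). Of all probes, 1.01% and 0.856% were called in those contrasts. With the values as deposited the first had an adjusted p of 0.0560 and the second did not pass (0.20, adjusted p = 0.351). Without the dim arrays they were 0.25 (SE 0.045, adjusted p = 4.93e-05) and 0.24 (SE 0.043, adjusted p = 4.84e-05). Fabp5 was the single gene of the 9 called in either contrast, and 0 of 8 were called between F2 and HS4, beside 0.042% of all probes. For Lrp1 the interaction of F2 with HS-CC was 0.16 (SE 0.071, adjusted p = 0.570), so a difference between those selections was not shown for it.

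Lrp1, the large endocytic receptor that takes up apolipoprotein E particles and many other ligands, was lower by a smaller amount. Its HS-CC High values were 9.20, 9.79 and 10.33 (lowest, median and highest) and its Low values 9.52, 9.97 and 10.26. The ranges overlapped over most of their length, but 38 of 48 High animals lay below the Low median. The difference was −0.15 (SE 0.044, 95% interval −0.24 to −0.06, limma adjusted p = 0.0487), or 0.901 times the Low level. Without the 11 dim arrays it was −0.13 and no longer passed (limma adjusted p = 0.101). In F2 it was 0.00 (95% interval −0.08 to 0.07) and in HS4 as labelled −0.05 (95% interval −0.17 to 0.08).

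**Figure D2:**
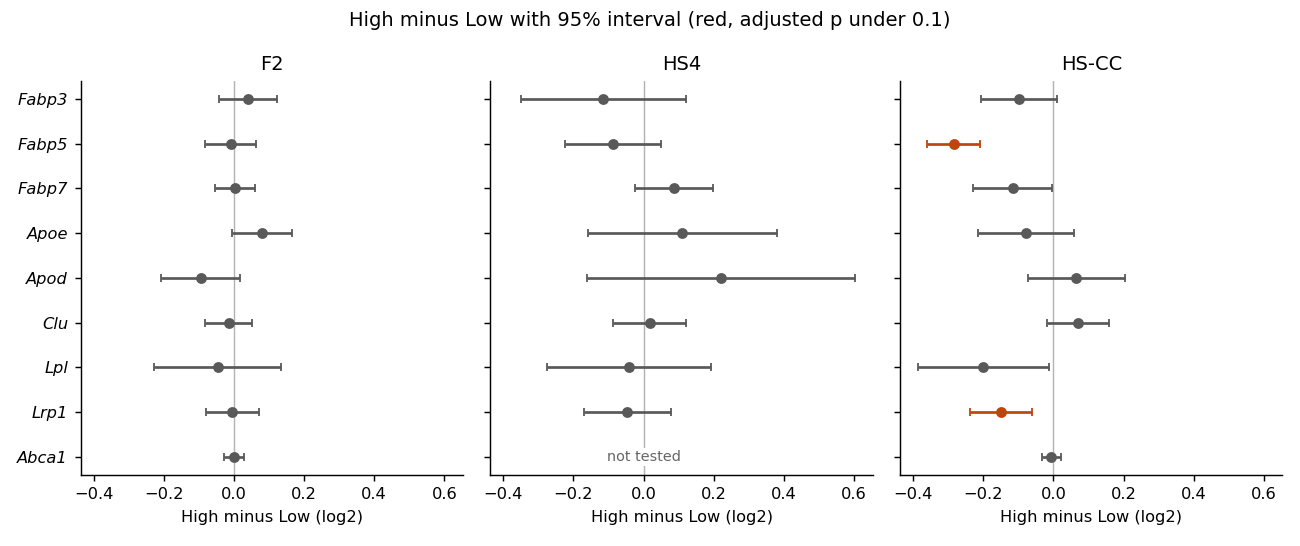
High minus Low difference in log2 signal (x axis) of each gene (y axis) in each selection, with its 95% interval from limma and red where the adjusted p was under 0.1. Fabp5 at −0.28 and Lrp1 at −0.15 in HS-CC are the only red points, and Abca1 was not tested in HS4.

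A further pair of genes in HS-CC reached 0.05 before adjustment and did not pass. For Lpl, which frees fatty acids from lipoprotein triglyceride, High values were 11.80, 12.80 and 13.48 (lowest, median and highest) and Low values 10.81, 12.99 and 13.72, and 34 of 48 High animals lay below the Low median. The difference was −0.20 (SE 0.094, limma p = 0.0364, adjusted p = 0.352). The lowest Low array was also lowest in spiny neuron markers, and without it the difference of Lpl was −0.25 (SE 0.084, adjusted p = 0.113), still short of the threshold. For Fabp7, the astrocyte form, High values were 9.28, 9.69 and 10.60 and Low values 9.33, 9.76 and 11.19, a difference of −0.12 (SE 0.056, limma p = 0.0421, adjusted p = 0.374).

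None of the remaining genes passed in HS-CC. Their differences were −0.10 for Fabp3 (95% interval −0.21 to 0.01), −0.08 for Apoe (−0.21 to 0.06), 0.07 for Apod (−0.07 to 0.20), 0.07 for Clu (−0.02 to 0.16) and −0.01 for Abca1 (−0.03 to 0.02). The apolipoprotein genes thus had intervals on both sides of 0. In F2 the widest departures from 0 were Apoe at 0.08 (95% interval −0.01 to 0.17) and Apod at −0.09 (−0.21 to 0.02). In HS4 as labelled it was Apod, at 0.22, with an interval from −0.16 to 0.60 that leaves room for changes larger than any measured in the other selections. Without the dim arrays it was 0.06 (95% interval −0.17 to 0.30).

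Markers of glia were read beside Fabp5 in HS-CC, and the lists did not move one way. Of the astrocyte list, 11 of 12 genes were measured, by 15 expressed probes. Of the 15, 2 were called lower in High and 0 higher, beside 2.22% of all probes called lower. This list leaned lower in High, with a median difference of −0.04 and differences from −0.20 to 0.02. An unadjusted limma p under 0.05 was found for 6 of the 15, beside 1862 of all 15119 probes. Of the oligodendrocyte list, read by 15 probes of 8 genes, 1 probe was higher and 0 lower, with a median of 0.07 and differences from −0.01 to 0.30. Of 11 microglia probes 1 was lower and 0 higher, with a median of 0.00 and differences from −0.30 to 0.23. The mean marker score of the astrocyte list, over 11 genes with 1 probe each, ran from −1.10 to 0.71 in High and from −0.70 to 1.12 in Low. Across animals, with line means subtracted, Fabp5 rose and fell with that score in HS-CC (r = 0.43, rho = 0.45, permutation adjusted p = 0.000113 and 0.000137). Its rho was −0.09 in F2 and −0.06 in HS4, and the difference between the selections was not tested. All arrays entered these values, also the dim HS4 ones, on which Fabp5 had a median of 10.64 against 10.09 on the others. The rho of Fabp5 in HS-CC was 0.38 with the microglia score and −0.04 with the oligodendrocyte score. The part of these cells in the Fabp5 difference was not tested, and in bulk tissue fewer cells of a type and less RNA per cell cannot be told apart.

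Genes beside Fabp5 on chromosome 3 differed as well. Among the 10 genes on either side, 4 were expressed, by 5 probes, and 2 of the 5 probes were called in HS-CC, beside the 3.41% of all probes given above. Impa1, an inositol monophosphatase, was higher in High (10.24 against 9.91, difference 0.34, SE 0.071, limma adjusted p = 0.00128). Zfand1, a zinc finger protein, was lower (9.58 against 9.70, difference −0.12, SE 0.026, adjusted p = 0.00215). The neighbours thus moved in opposite directions.

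Extending the window to the nearest expressed genes, a choice made after the data had been seen, took in 19 genes and 25 probes. Of these probes 4 were called in HS-CC, 3 higher and 1 lower, beside 3.41% of all probes. The added calls were Pkia, an inhibitor of protein kinase A (0.25, SE 0.057, adjusted p = 0.00374), and 1 of the probes of Car2, carbonic anhydrase 2, which oligodendrocytes express (0.19, SE 0.058, adjusted p = 0.0701). The other Car2 probe gave 0.04 and was not called (limma adjusted p = 0.907). The called Car2 probe did not pass with array weights (adjusted p = 0.204), with all probes tested (0.112) or without the dim arrays (0.13, adjusted p = 0.255). Pkia, Impa1 and Zfand1 passed under each of these. None of these 25 probes was called in F2 or HS4. Around Lrp1 on chromosome 10, 0 of 5 probes were called in HS-CC in the first window and 0 of 30 in the wider one. With so few probes, 0 calls are not read as a contrast with Fabp5.

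**Figure D3:**
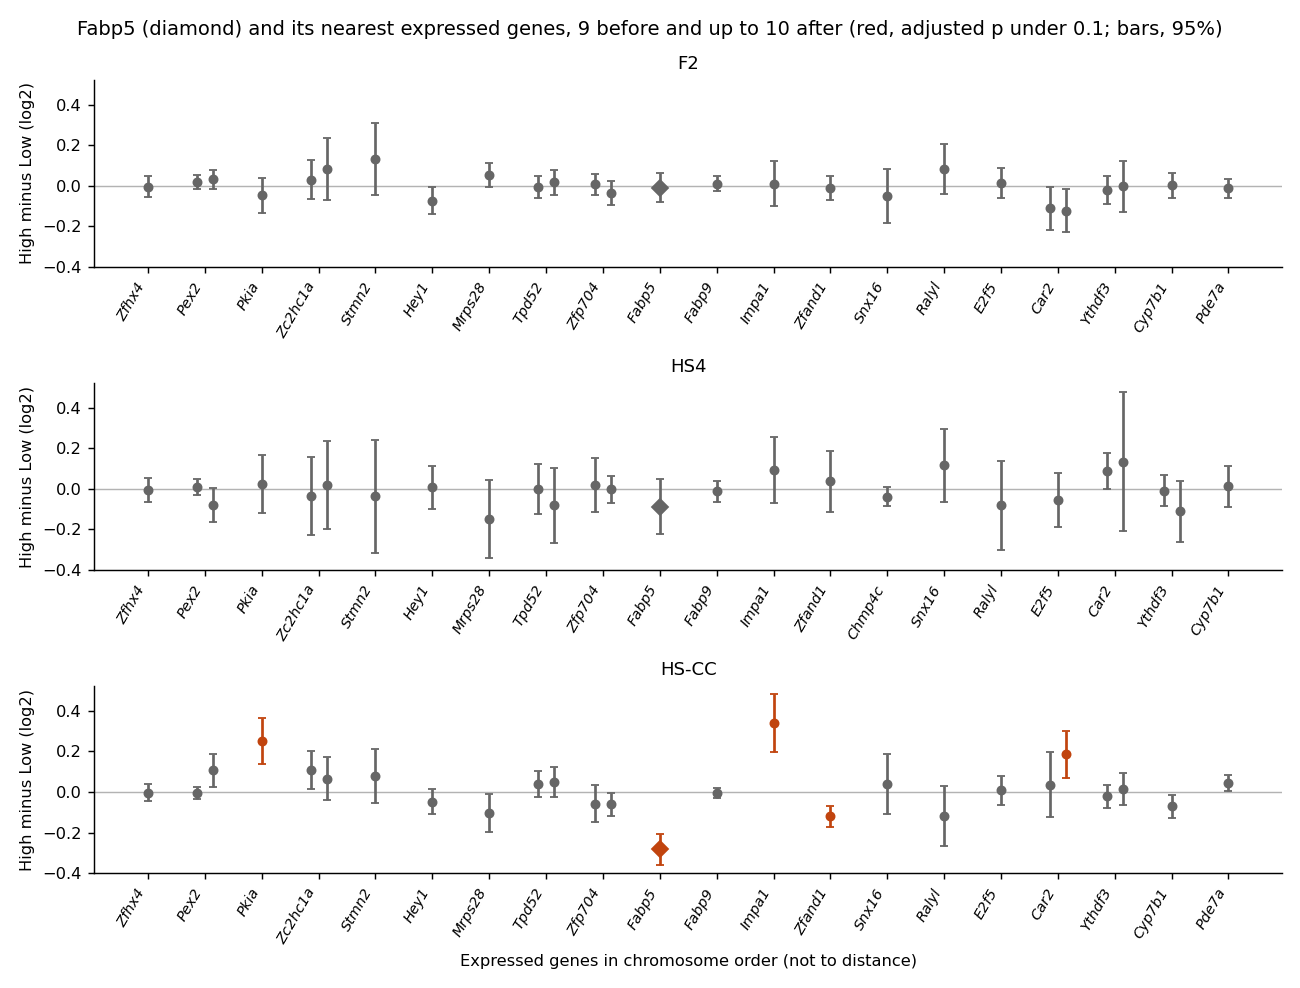
High minus Low difference in log2 signal (y axis) of the expressed probes around Fabp5 (diamond), in chromosome order (x axis, not to distance), in each selection, with 95% intervals and red where the adjusted p was under 0.1. In HS-CC, Impa1, Pkia and 1 Car2 probe lie above 0 and Fabp5 and Zfand1 below it, and no point is red in F2 or HS4.

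Other genes of lipid handling were read from a list of 82 (receptors of the LDL family, ABC transporters, lipases, sterol carriers and the like, the 9 genes left out). Of these 67 were measured and 47 were expressed in HS-CC, by 65 probes. In HS-CC 0 of these probes were called higher and 5 lower, and 60 were not called, beside 3.41% of all probes called and 2.22% called lower, with a median difference of −0.02 against −0.003 over all probes. The 5 were Abcd3, a peroxisomal transporter (−0.20, SE 0.061), Mfsd2a, the carrier of lysophosphatidylcholine at the blood-brain barrier (−0.16, SE 0.053), Lrp12 (−0.16, SE 0.049), Lipa, the lysosomal acid lipase (−0.11, SE 0.034), and Lrp6, a Wnt coreceptor (−0.09, SE 0.027), with limma adjusted p between 0.0568 and 0.0911. A second probe of Lrp12 gave −0.09 and was not called, and without the dim arrays the first did not pass either (−0.14, adjusted p = 0.131). Mfsd2a did not pass with all arrays normalized together (adjusted p = 0.101), with a sex term (0.105), with all probes tested (0.144) or without the array lowest in spiny neuron markers (0.113), and was −0.11 without the dim arrays. Abcd3 did not pass with array weights (adjusted p = 0.109). At a false discovery rate of 0.05, 0 of the list were called. In F2, 0 of 67 probes were called (5 at an unadjusted p under 0.05), and in HS4 0 of 68 (1 under 0.05).

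The second question was how the genes varied together from animal to animal within a line. Line means were subtracted, and all pairs were tested by permuting animals within lines 100000 times, with Benjamini-Hochberg adjustment over the 100 pairs of the 3 selections (36 in F2 and in HS-CC, 28 in HS4, where Abca1 was not expressed). By Pearson's r 14 pairs passed an adjusted p of 0.1 in F2 and in HS-CC and 19 in HS4, and by r and Spearman's rho together 9 pairs passed in F2, 8 in HS-CC and 12 in HS4. Without the dim arrays 7, 7 and 8 pairs passed both. The pairs that passed with and without those arrays were 6 in F2, 6 in HS-CC and 3 in HS4, so most of the HS4 calls rested on the dim arrays. How many random pairs of probes would pass was not computed, so the counts are not shown to be particular to these genes. The median absolute r of random pairs was 0.16 in F2 and in HS-CC and 0.28 in HS4. Probes drawn at random can correlate too, and the cause of that was not tested. Among 3000 such probes the middle 90% of Spearman correlations ran from −0.32 to 0.34 for F2. The range was −0.27 to 0.30 for HS-CC. HS4 gave −0.38 to 0.42, or −0.38 to 0.39 once dim arrays were left out. For Pearson's r over all arrays the middle 90% was wider. It lay between −0.406 and 0.415 in F2, −0.420 and 0.432 in HS-CC, and −0.555 and 0.631 in HS4. The range of r without the dim arrays was not taken. Each coefficient below is to be read against the range of its own kind.

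**Figure D4:**
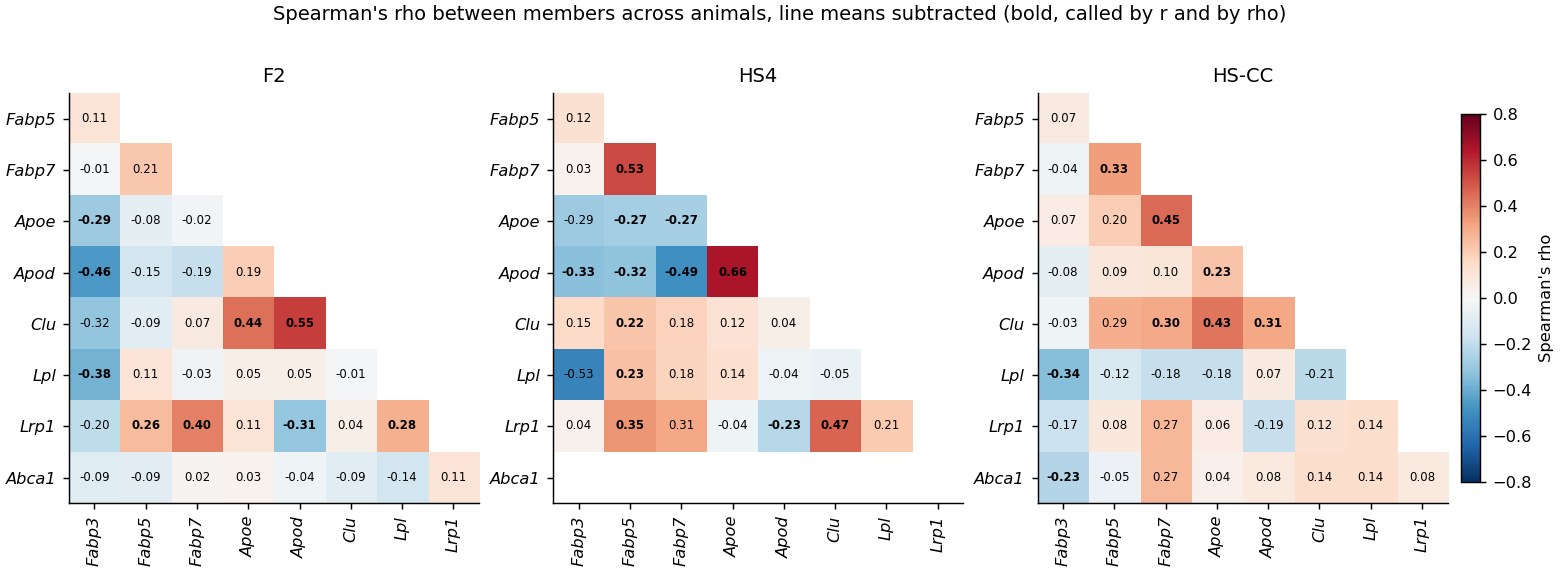
Spearman's rho (colour and number) between each pair of genes across the animals of each selection, with line means subtracted and bold where the pair passed by r and by rho. Fabp3 with Lpl is negative in each panel, at −0.38, −0.53 and −0.34, and Apoe with Apod in HS4 is the highest at 0.66. All arrays are included, also the dim ones, which moved many of the HS4 values.

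Lpl and Fabp3 ran against each other in each selection. The coefficient was r = −0.37 and rho = −0.38 in F2 (n = 83, permutation adjusted p = 0.00225 and 0.00317) and r = −0.32 and rho = −0.34 in HS-CC (n = 96, adjusted p = 0.00662 and 0.00521). In HS4 rho was −0.53 (n = 96, adjusted p = 0.0002) while r was −0.08 (adjusted p = 0.588), and r was −0.63 without the 4 arrays that stood apart and −0.71 without the dim ones (rho = −0.72). Leaving out the 2 animals farthest from the median of Lpl gave r = −0.39 for F2, −0.34 for HS4 and −0.28 for HS-CC. In HS-CC the relation was seen in the Low line (r = −0.63) and not in High (r = −0.02, or −0.19 without the High array that stood apart), a difference that was not tested. Without the Low array lowest in spiny neuron markers, r in Low was −0.60.

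The same genes separated by neuron markers. Fabp3, the neuronal form, followed a score of 5 cortical glutamatergic markers with rho = 0.81 (F2), 0.75 (HS4) and 0.69 (HS-CC), and ran against the spiny neuron score with rho = −0.69, −0.60 and −0.58. Lpl did the reverse, with rho = 0.40, 0.63 and 0.61 for the spiny neuron score and −0.40, −0.50 and −0.26 for the cortical one. Each of these passed by rho with an adjusted p under 0.1 over 260 relations of genes with marker lists, and each passed by r as well except Fabp3 with the spiny neuron score in HS4 (r = −0.19, −0.78 without the arrays that stood apart and −0.82 without the dim ones). Lpl with the cortical score in HS-CC did not pass by r without the dim arrays (r = −0.22, adjusted p = 0.119). The part of tissue taken from outside the striatum in the Lpl and Fabp3 relation was not tested. How many of all probes would pass with a marker score was not computed, so such relations are not shown to be particular to these genes.

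**Figure D5:**
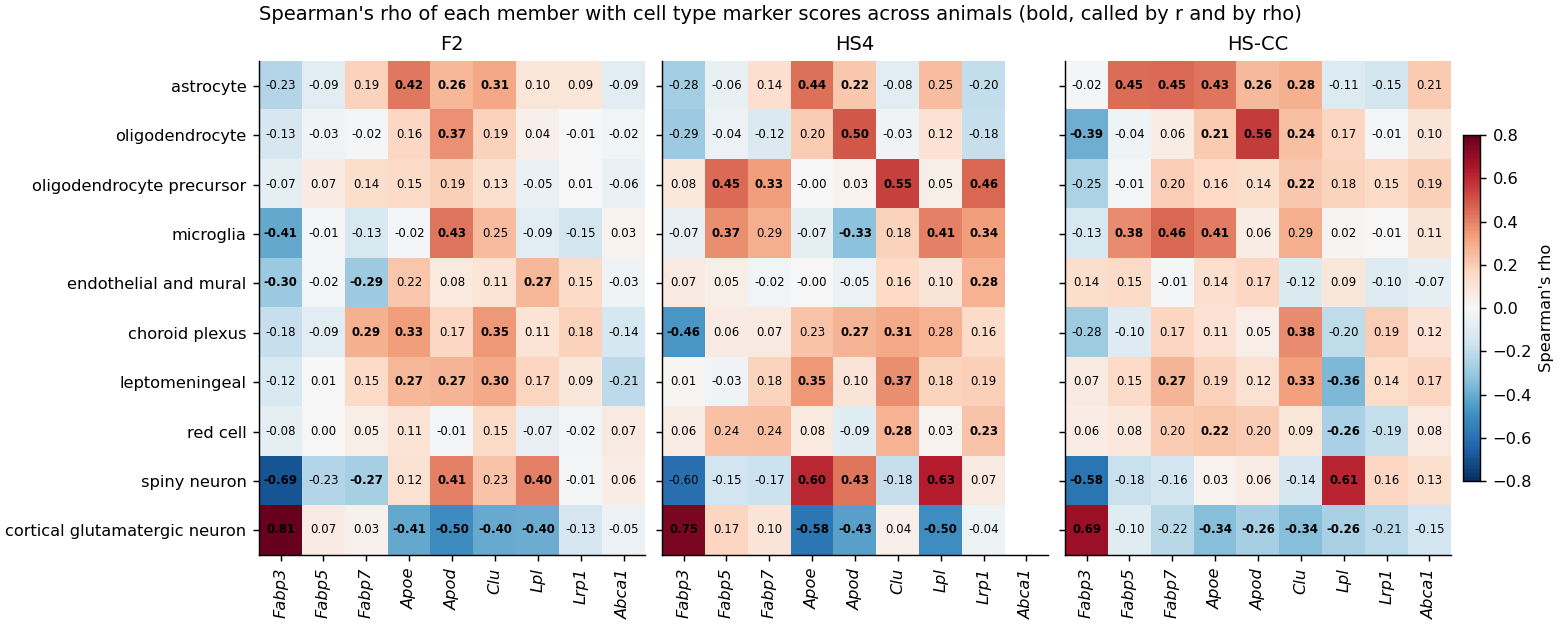
Spearman's rho (colour and number) of each gene (x axis) with the mean score of each cell type marker list (y axis) across the animals of each selection, with line means subtracted and bold where r and rho passed. The Fabp3 column holds the highest value, 0.81 with cortical markers in F2, and Apod with oligodendrocyte markers and Apoe with astrocyte markers are positive in each panel.

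Among the secreted carriers, Apoe and Clu varied together in F2 (r = 0.50, rho = 0.44, n = 83, permutation adjusted p = 0.000143 and 0.000222) and in HS-CC (r = 0.28, rho = 0.43, n = 96, adjusted p = 0.0224 and 0.0003). In HS4 the signs of the coefficients were split over all arrays (r = −0.23, rho = 0.12), and without the dim arrays the pair was positive there too (r = 0.58, rho = 0.57, n = 82, adjusted p = 0.000167 and 0.0002). Apod and Clu were also positive in F2 (r = 0.55, rho = 0.55) and HS-CC (r = 0.26, rho = 0.31), and in HS4 without the dim arrays (r = 0.54, rho = 0.47) but not with them (r = −0.28, rho = 0.04). The pair with the highest coefficient of all was Apoe with Apod over the arrays labelled HS4 (r = 0.75, rho = 0.66, n = 96, adjusted p = 0.000143 and 0.0002, r = 0.74 without the 2 farthest animals). It was r = 0.61 and rho = 0.55 without the dim arrays (adjusted p = 0.000167 and 0.0002). In F2 the coefficients were r = 0.28 and rho = 0.19, and in HS-CC r = 0.28 and rho = 0.23, where the pair did not pass by r without the dim arrays (r = 0.22, adjusted p = 0.103).

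The relations of the carriers with glial markers were uneven. Apod went with the oligodendrocyte score in each selection (rho = 0.37, 0.50 and 0.56 in F2, HS4 and HS-CC) and Apoe with the astrocyte score (rho = 0.42, 0.44 and 0.43), although without the dim arrays the Apoe value of HS4 was 0.20 (adjusted p = 0.177). For Clu the astrocyte rho was 0.31 in F2 and 0.28 in HS-CC but −0.08 in HS4 (0.23 without the dim arrays, adjusted p = 0.128), and its rho with choroid plexus markers was 0.35, 0.31 and 0.38. Apoe, Apod and Lpl each ran against the cortical score in all 3 selections, with rho between −0.58 and −0.26.

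Fabp5 and Fabp7, both found in glia, gave positive coefficients in each selection. The pair gave r = 0.46 and rho = 0.33 in HS-CC (n = 96, adjusted p = 0.000222 and 0.00771) and r = 0.44 and rho = 0.53 in HS4 (n = 96, adjusted p = 0.000937 and 0.0002). In F2 r was 0.29 and rho 0.21 (adjusted p = 0.0266 and 0.133), and without the 3 arrays that stood apart r was 0.04, while without the 15 dim arrays, 2 of those 3 kept, it was 0.42. In HS4 without the dim arrays r was 0.48 and rho 0.48. Fabp7 followed the astrocyte score in HS-CC (rho = 0.45), with 0.19 in F2 and 0.14 in HS4, and the last was 0.48 without the dim arrays.

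Apoe and Fabp7, both known as astrocyte products, gave coefficients of differing sign over all arrays. In HS-CC they rose and fell together (r = 0.44, rho = 0.45, n = 96, adjusted p = 0.000222 for both), in F2 they showed little relation (r = 0.04, rho = −0.02) and in HS4 they were negative (r = −0.43, rho = −0.27, adjusted p = 0.000385 and 0.0304). The HS4 relation did not pass without the dim arrays (r = −0.13, rho = −0.14, adjusted p = 0.470 and 0.391), and its r shrank to −0.07 once the first principal component of all expressed probes, which held 36.2% of the variance there, had been removed, whereas the HS-CC one stayed at 0.40. The difference between the selections was not tested.

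Lrp1 went with Fabp5 over the arrays labelled HS4 (r = 0.66, rho = 0.35, n = 96, adjusted p = 0.000143 and 0.00354), but not without the dim arrays (r = 0.10, rho = 0.00, adjusted p = 0.569 and 0.997). In F2 the pair gave r = 0.48 and rho = 0.26, which fell to r = 0.14 without the arrays that stood apart. In HS-CC, where both genes were lower in High, they showed little relation within lines (r = 0.22, rho = 0.08, adjusted p = 0.0868 and 0.609). Lrp1 also went with Clu in HS4 (r = 0.55, rho = 0.47), again short of the threshold without the dim arrays (r = 0.24, rho = 0.23, adjusted p = 0.103 and 0.132), and with Fabp7 in F2 (r = 0.45, rho = 0.40). The last was r = 0.49 without the dim arrays, 0.28 without the arrays that stood apart, and 0.13 with the first principal component removed, where it did not pass (adjusted p = 0.448).

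For each gene the 3 probes of other genes most like it were found by the mean Spearman's rho over the 3 selections, among 13994 probes expressed in all of them (275 animals, line means subtracted). Fabp3 had the closest company: Cnih3, an auxiliary subunit of AMPA receptors (mean rho 0.80), the neuropeptide gene Cck (0.77) and Sidt1 (0.76). Lpl was matched by both probes of Kcnab1, a potassium channel subunit (0.65 and 0.63), and by Cyld, a deubiquitinase (0.61). Apod was matched by the myelin gene Mog (0.62), Anln (0.60) and the tetraspanin Cd9 (0.59), and Apoe by the tetraspanin Cd63 (0.59), the ribosomal protein gene Rps13 (0.54) and the lipid phosphatase Plpp3 (0.54).

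The remaining genes also had looser company than Fabp3. For Clu it was Triobp, an actin binding protein (0.61), the growth factor midkine, Mdk (0.58), and Gstk1 (0.58). For Fabp7 it was the selenium carrier Selenop (0.62), Sash1 (0.62) and the prefoldin subunit Vbp1 (0.59). Lrp1 lay with Pom121 of the nuclear pore (0.62), Emc1 (0.56) and the neuronal chloride transporter Slc12a5 (0.53). Fabp5 lay with genes of mitochondria and the proteasome, Timm8a1 (0.55), Mrpl1 (0.54) and Psmb7 (0.52), and its coefficient with Timm8a1 was 0.50 in F2 and in HS-CC and 0.64 in HS4. Without the dim arrays the mean rho of the probes named here lay between 0.45 and 0.82, but only 10 of the 24 were then among the 3 closest of all probes to their gene. The matches of Apod fell to places 9, 13 and 19, Plpp3 to 42 for Apoe and Cck to 12 for Fabp3. Abca1 was left out of this search because it was not expressed in HS4.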

How the data were processed

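Illumina mouse arrays of 275 striatal samples were read from 1 table. The authors made the values with lumi and quantile normalized each selection by itself, and the deposited values are log2-scale intensities. Which transformation lumi applied (log2 or variance-stabilizing) is not stated in what was read, and fold changes of dim probes could be too small for that reason. Groups followed the labels.

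A probe was expressed where it exceeded, on 25% or more of a selection's arrays, the 95th percentile of 1341 chemosensory receptor probes. High minus Low was fitted within selections with limma 3.58.1 (R 4.3.3; lmFit, eBayes), p-values were adjusted by Benjamini and Hochberg's method over the expressed probes, and the false discovery rate was 0.1. The study used the eBayes statistic for each pair of lines too, but it removed outlier samples and low-variance probes, while all deposited arrays and expressed probes stayed in here, and it called probes expressed by another rule. Interactions came from 1 model after joint quantile normalization. Symbols were those of the platform annotation (23978 probes with 1, 0 with several, 1719 with none). Correlations were computed in Python 3.11.15 (numpy 2.4.6; scipy 1.17.1; pandas 2.3.3), and their permutation p could not go below 1e-05. A marker score was the mean z score of a list's probes. Scripts were tested on simulated data. Arrays that stood apart had a mean correlation with their selection over 2.5 SD under its mean, and they were kept, as were dim arrays with under 50% of probes above background. The number of arrays limits the precision, and p-values measure the spread between animals. Animals of a line were counted as independent, and relatives among them were not modelled in the main fits. A family term was run as an alternative in HS4 only, since the labels of F2 and HS-CC name no family.

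Named were all probes of the 9 genes, the 3 probes most like each, called genes of the lipid list and called neighbours of called genes. The genes and lists were chosen with earlier results of these data known. Alternatives were all or only variable probes, joint normalization, leaving out arrays, array weights, an intensity trend, a rate of 0.05, sex and family terms, probe means, and other correlations. Genotypes were not analysed here.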

Additional observations from a re-analysis of the deposited data

Results flagged for a closer look

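The High minus Low difference of Fabp5 differed between selections by a test of the difference itself. It was 0.302 higher on the log2 scale in F2 than in HS-CC and 0.235 higher in HS4, as labelled, than in HS-CC, and Fabp5 was called lower in High animals of HS-CC alone. There 47 of 48 HS-CC High animals lay below the Low median. Only the first passed with the values as deposited.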

How the results depend on the processing

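Of the 9 genes, 0 passed in F2 and in HS4 under each alternative run, and in HS-CC 2 passed under each but one: without the dim arrays, a choice made after seeing the data, 1 passed, since Lrp1 had an adjusted p of 0.101. Fabp5 in HS-CC stayed between −0.31 and −0.24, and Lrp1 between −0.17 and −0.13. The total of probes called moved more, from 141 to between 72 and 617 in F2, from 516 to between 192 and 829 in HS-CC, and from 7 to between 3 and 114 in HS4, the lowest at a rate of 0.05 in F2 and with variable probes in HS4 and HS-CC, the highest with array weights. Between HS4 and HS-CC, 0 genes passed with the values as deposited in place of 1. The cause was not tested. Pairs that passed by r fell in F2 from 14 to 9 without the arrays that stood apart, and without the dim arrays from 19 to 9 in HS4 and from 14 to 9 in HS-CC. Of the lipid list, 5 probes passed in HS-CC, against 3 with all probes tested, 2 with variable probes and 0 at a rate of 0.05. Under the remaining alternatives 4 or 5 were lower, and 1 was higher without the arrays that stood apart, with array weights and without the dim arrays. In place of 0, 1 passed in F2 with array weights and 1 without the dim arrays, and 1 in HS4 with all probes. With the nearest expressed genes, 4 neighbours of Fabp5 passed in place of 2, a wider window by construction. Some differences that did not pass changed sign: Abca1 and Fabp7 in F2 and Clu in HS4 without the arrays that stood apart, Lrp1 in F2 and HS4 and Apoe in HS4 with array weights, and Abca1 in F2 and Lrp1 and Apoe in HS4 without the dim arrays. Relations with marker lists that passed by r kept their counts within 1.5 times. No paired analysis was possible because the lines share no animal numbers within a selection. Signals near background limit Abca1, and 1 probe each limits all the genes.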
